A study of Homo sapiens with 21 samples.

Results

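The DUSP, Sprouty and SPRED genes examined here are 10 named genes, DUSP1, DUSP4, DUSP5, DUSP6, DUSP10, SPRY1, SPRY2, SPRY4, SPRED1 and SPRED2, out of 23368 features in the mRNA count table. They were chosen by name, as genes that restrain MAP kinase signalling, and all 10 were listed in the table. The choice was made with earlier results of these data known. HK-2 is an immortalised line derived from human proximal tubule epithelium, and every library comes from this line. Cells given 5 µg/mL cyclosporine A (CsA, a calcineurin inhibitor used as an immunosuppressant) for 48 h were set against cells given the 0.1% ethanol vehicle (Veh) for the same time, with 4 mRNA and 4 miRNA libraries per treatment. Argonaute-bound RNA was mapped by PAR-CLIP after 24 h of CsA or of vehicle, with 2 AGO2 libraries per treatment combined in 1 list of clusters each. The PAR-CLIP cells alone were also given 100 µM 4-thiouridine, a nucleoside built into new RNA, and were crosslinked at 365 nm, so they differ from the cells of the mRNA and miRNA libraries in more than time. The last PAR-CLIP sample used a pan-Argonaute antibody, and the labels give no treatment for it. Every culture was grown in medium with 5 ng/ml epidermal growth factor and pituitary extract, so the vehicle cells also received a ligand of the pathway these genes restrain. Whether the libraries of a treatment are separate cultures is not in the labels. The p-values therefore weigh a difference against the spread among libraries, and that spread may be technical.

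MAP kinases are switched on by phosphorylation, and growth factor receptors do this to ERK through RAS, RAF and MEK. The dual-specificity phosphatases (DUSPs) remove those phosphates from ERK, JNK or p38, Sprouty proteins interrupt the route between the receptor and RAF, and SPRED proteins hold RAS inactive together with neurofibromin. Many of these genes are themselves transcribed in response to MAP kinase activity, which makes them negative feedback genes. Their mRNA levels are measured here; phosphorylated kinases were not analysed here.

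All 9 of the feedback genes with enough counts to be tested rose with CsA, and in each of them the lowest CsA library lay above the highest Veh library. The rise was largest for DUSP10, 5.66-fold, and smallest for SPRED1, 1.29-fold. Among all 12855 genes tested with edgeR's quasi-likelihood test, 33.3% rose and 33.5% fell at an adjusted p under 0.05, and 7444 did not overlap between the treatments, so a call by itself is common in this experiment. A called rise with a log2 fold change of 1 or more was less common, at 4.41% of genes, and 6 of the 9 feedback genes had one. Their median log2 fold change was 1.29, beside -0.002 for all genes tested. Since these genes and the lists below were chosen with earlier results known, such values describe the chosen genes and do not test their families. In bulk RNA, more cells that make a transcript and more of it per cell cannot be told apart.

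**Figure D1:**
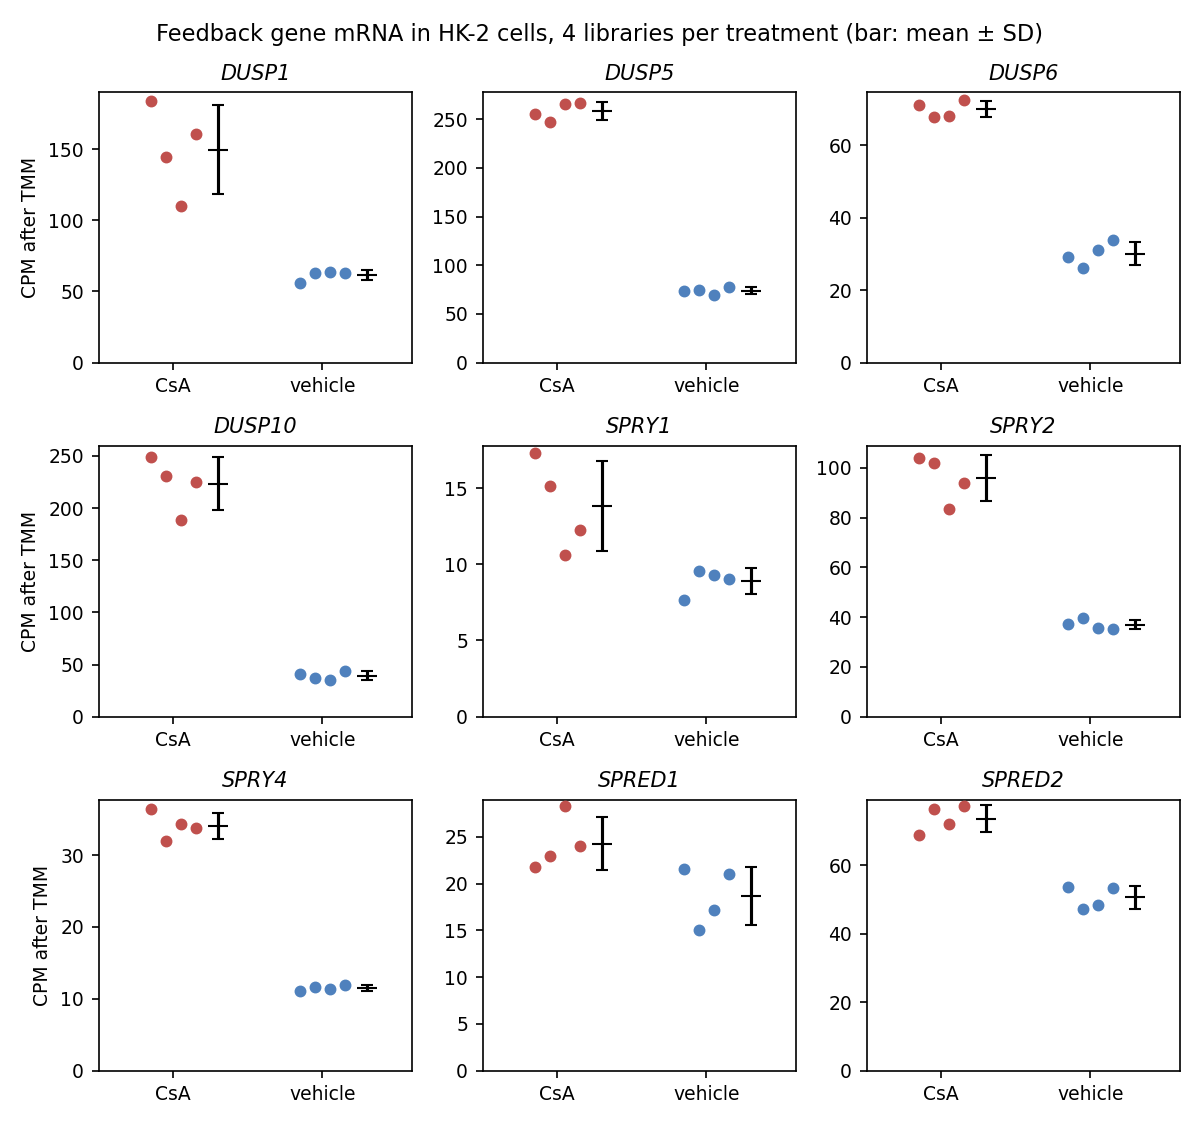
Level of the 9 tested feedback genes in each library, in CPM after TMM scaling on a linear axis that starts at 0, with CsA libraries on the left, Veh libraries on the right and bars for the mean ± SD (n = 4 each). The groups are far apart for DUSP10, DUSP5, SPRY4 and SPRY2, while for SPRED1 the lowest CsA library, 21.8 CPM, sits beside the highest Veh library, 21.6 CPM.

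DUSP1, DUSP4 and DUSP5 are the inducible phosphatases of the nucleus. DUSP1, also called MKP-1, works mainly on p38 and JNK as well as ERK. Levels are given as CPM, the count scaled to the effective size of its library. DUSP1 had 184, 144, 109.7 and 161 CPM in CsA libraries 1 to 4, against 56.0, 63.1, 63.5 and 62.8 CPM in Veh libraries 1 to 4. The CsA libraries were spread widely and all lay above the tight Veh group. The mean was 149.5 ± 31.1 CPM with CsA and 61.4 ± 3.56 CPM with Veh (SD, n = 4 each), a log2 fold change of 1.29 ± 0.09 (SE; edgeR adjusted p = 7.1e-20). CsA library 3 was the lowest for DUSP1, and the log2 fold change was 1.42 without it.

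The DUSP1 promoter is shown because it holds the only perfect cAMP response element, TGACGTCA, among the promoter windows of these genes. These 250 bases lie directly upstream of the RefSeq start, at chr5:172771196-172771445 on the minus strand of GRCh38.p14, and the element is in capitals.
DUSP1 promoter: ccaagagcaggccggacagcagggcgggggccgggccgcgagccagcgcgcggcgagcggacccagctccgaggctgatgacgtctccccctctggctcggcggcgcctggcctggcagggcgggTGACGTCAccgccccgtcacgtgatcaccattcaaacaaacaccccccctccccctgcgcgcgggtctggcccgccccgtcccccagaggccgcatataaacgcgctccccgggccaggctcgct
The element begins 125 bases before the start. It reads the same on both strands, and 1.85% of the 35116 windows of 300 bases in the RefSeq table hold it.

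DUSP5 dephosphorylates ERK and holds it in the nucleus. It had 255, 247, 265 and 267 CPM in CsA libraries 1 to 4, against 73.9, 74.9, 69.2 and 77.2 CPM in Veh libraries 1 to 4. Both groups were narrow and well separated. Its mean was 259 ± 9.23 CPM with CsA and 73.8 ± 3.36 CPM with Veh (SD, n = 4 each), a log2 fold change of 1.81 ± 0.06 (SE; edgeR adjusted p = 8.9e-33). This was the 84th highest fold change of the 12855 genes.

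DUSP4, a nuclear phosphatase closely related to DUSP1, was barely present in these cells. It had 6, 0, 1 and 3 counts in CsA libraries 1 to 4, against 0, 1, 0 and 0 counts in Veh libraries 1 to 4, and did not pass the filter on low counts. The groups overlap, since CsA library 2 had no count. Over pooled libraries, 10 counts with CsA and 1 count with Veh give a depth-adjusted ratio of 12.1, with an exact 95% interval of 1.73 to 527 that covers counting error only. Without the filter edgeR gave an adjusted p of 0.008 and DESeq2 one of 0.046, both resting on these 11 counts.

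DUSP6, also called MKP-3, is the cytoplasmic phosphatase that is selective for ERK and is widely read as a marker of ERK output. It had 71.2, 67.9, 68.1 and 72.4 CPM in CsA libraries 1 to 4, against 29.2, 26.1, 31.1 and 33.9 CPM in Veh libraries 1 to 4. All CsA libraries were above all Veh libraries. The mean was 69.9 ± 2.23 CPM with CsA and 30.1 ± 3.25 CPM with Veh (SD, n = 4 each), a log2 fold change of 1.22 ± 0.08 (SE; edgeR adjusted p = 1.8e-19).

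DUSP10, also called MKP-5, is selective for JNK and p38 and spares ERK. It had 249, 231, 189 and 225 CPM in CsA libraries 1 to 4, against 41.1, 37.2, 35.1 and 44.3 CPM in Veh libraries 1 to 4. All CsA libraries were far above all Veh libraries. The mean was 223 ± 25.3 CPM with CsA and 39.4 ± 4.07 CPM with Veh (SD, n = 4 each), a log2 fold change of 2.50 ± 0.08 (SE; edgeR adjusted p = 2.6e-35). It ranked 29th from the top of all 12855 fold changes.

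Sprouty proteins are membrane-linked adaptors that are phosphorylated after receptor activation and then limit RAS and RAF activation. SPRY2 had 104, 102, 83.5 and 93.8 CPM in CsA libraries 1 to 4, against 37.3, 39.6, 35.8 and 35.2 CPM in Veh libraries 1 to 4. SPRY4 had 36.4, 32.0, 34.3 and 33.8 CPM in CsA libraries 1 to 4, against 11.1, 11.6, 11.4 and 12.0 CPM in Veh libraries 1 to 4. Neither gene had overlapping groups. The log2 fold change was 1.37 ± 0.08 for SPRY2 (SE; edgeR adjusted p = 1.1e-22). For SPRY4 it was 1.57 ± 0.11 (SE; edgeR adjusted p = 8.4e-19).

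SPRY1 had a smaller fold change and a wide spread between CsA libraries. It had 17.3, 15.1, 10.6 and 12.3 CPM in CsA libraries 1 to 4, against 7.66, 9.57, 9.32 and 9.03 CPM in Veh libraries 1 to 4. CsA library 3 came close to the Veh range without entering it. The log2 fold change was 0.66 ± 0.16 (SE; edgeR adjusted p = 2.0e-04).

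SPRY2 has 3 RefSeq promoter windows. The only SPRY2 window with the core of the EGR1 binding motif, GCGNGGGCG, is shown because it holds the core at more than 1 place. Windows of SPRY1 and SPRY4 hold it too. The 250 bases upstream of that RefSeq start of SPRY2 lie at chr13:80341127-80341376 on the minus strand of GRCh38.p14. The matches on either strand are in capitals.
SPRY2 promoter: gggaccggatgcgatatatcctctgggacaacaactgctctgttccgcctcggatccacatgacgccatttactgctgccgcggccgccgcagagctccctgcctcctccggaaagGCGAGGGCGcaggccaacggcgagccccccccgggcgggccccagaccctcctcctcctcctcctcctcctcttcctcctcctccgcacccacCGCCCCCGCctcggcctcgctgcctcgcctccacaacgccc
The matches begin 134 and 41 bases before the start. Of all RefSeq windows of 300 bases, 9.43% hold this core, and by gene the share is 11.2%, so 3 of the 8 genes with a window is a description and not a test. The AP-1 motif TGANTCA and the ATF4 motif TGATGNAA were found only in a SPRED2 window, and the ETS motif CCGGAAG only in a SPRY1 window; these 3 motifs occur in 7.71%, 3.62% and 10.3% of all windows. Windows of DUSP6, DUSP10 and SPRED1 held none of the 5 motifs on either strand, and no matches overlapped each other. The table has no window for DUSP4 and DUSP5.

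SPRED proteins bring neurofibromin, the RAS inactivator encoded by NF1, to the membrane. SPRED2 had 68.7, 76.2, 72.0 and 77.2 CPM in CsA libraries 1 to 4, against 53.6, 47.3, 48.3 and 53.3 CPM in Veh libraries 1 to 4. The groups were separate, and the log2 fold change was 0.53 ± 0.08 (SE; edgeR adjusted p = 1.2e-08). SPRED1 had 21.8, 23.0, 28.3 and 24.0 CPM in CsA libraries 1 to 4, against 21.6, 15.1, 17.1 and 21.0 CPM in Veh libraries 1 to 4. Its groups almost touched. The log2 fold change of SPRED1 was 0.37 ± 0.12 (SE; edgeR adjusted p = 0.0053), and leaving out Veh library 2 brought it to 0.28 with an adjusted p of 0.047.

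**Figure D2:**
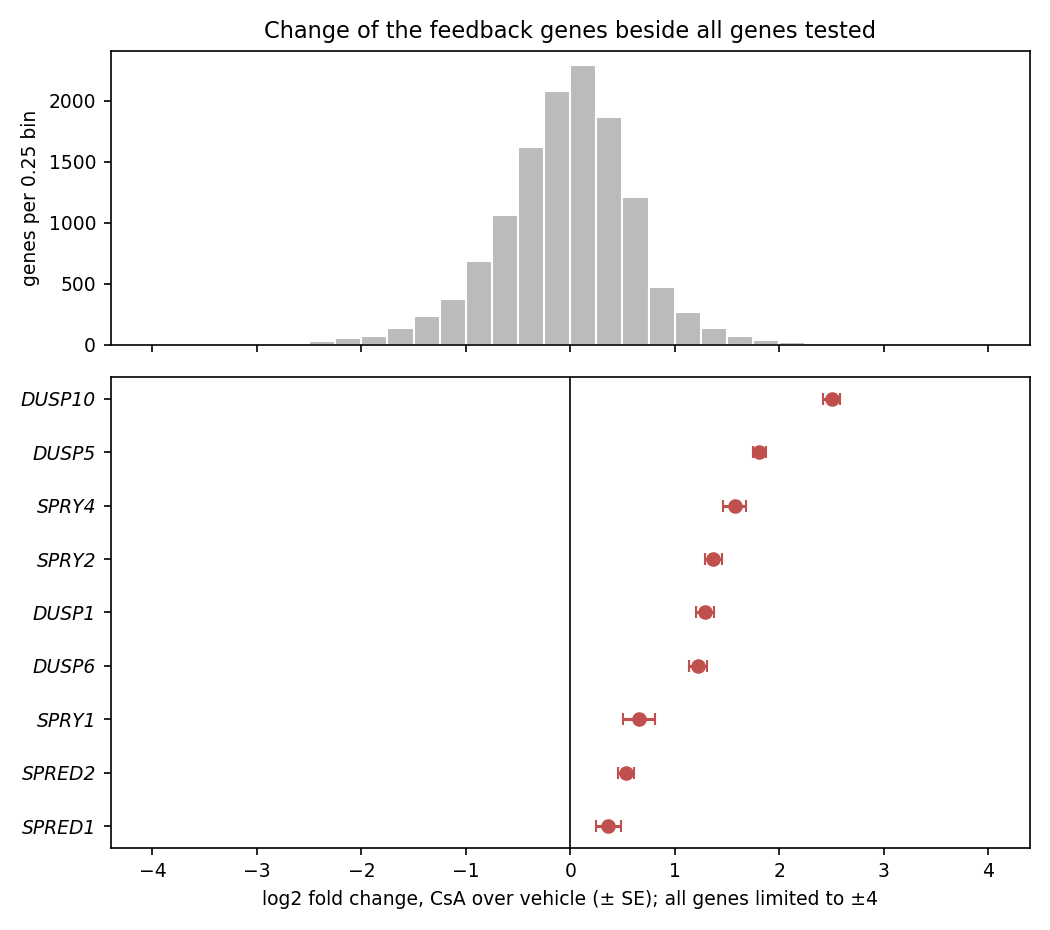
Upper panel, the number of genes per 0.25 bin of log2 fold change (CsA over Veh) for all 12855 genes tested, and lower panel, the log2 fold change of each tested feedback gene with its SE. DUSP10 at 2.50 and DUSP5 at 1.81 lie in the far right tail, while SPRY1, SPRED2 and SPRED1 at 0.66, 0.53 and 0.37 lie in its shoulder.

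By size, the genes ran DUSP10, DUSP5, SPRY4, SPRY2, DUSP1, DUSP6, SPRY1, SPRED2 and SPRED1. The log2 fold changes of SPRY2, DUSP1 and DUSP6, at 1.37, 1.29 and 1.22, differed by about their standard errors, so their order is not resolved. The order of SPRY4 (1.57 ± 0.11) and SPRY2 is not resolved either. Nor is that of SPRY1 (0.66 ± 0.16), SPRED2 (0.53 ± 0.08) and SPRED1 (0.37 ± 0.12, each ± SE). Apart from the ratios below, the order was not tested. Within the CsA group the 9 genes did not all share a pattern: library 1 was the highest for 5 and library 3 the lowest for 4. Those 4, DUSP1, DUSP10, SPRY1 and SPRY2, were all highest in library 1. For SPRED1, library 3 was the highest.

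Because the genes rose by different amounts, ratios between related genes within a library were also compared. The log2 ratio of DUSP1 to DUSP10 counts was -0.44, -0.68, -0.78 and -0.49 in CsA libraries 1 to 4, against 0.45, 0.76, 0.85 and 0.50 in Veh libraries 1 to 4. The sign differed between the treatments in all libraries, and the difference was -1.24 ± 0.13 (SE). The log2 ratio of DUSP6 to DUSP5 counts was -1.84, -1.86, -1.96 and -1.88 in CsA libraries 1 to 4, against -1.34, -1.52, -1.15 and -1.19 in Veh libraries 1 to 4. This ratio too did not overlap, with a difference of -0.59 ± 0.09 (SE). For each, the two-sided exact permutation p was 0.029, the smallest that 4 against 4 libraries allows, and 0.057 after Benjamini-Hochberg adjustment over the 4 ratios computed, so neither passed.

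The other ratios overlapped between the treatments. The log2 ratio of SPRY4 to SPRY2 differed by 0.19 ± 0.09 (SE; two-sided exact permutation p = 0.086, adjusted p = 0.114). The log2 ratio of SPRED1 to SPRED2 differed by -0.15 ± 0.12 (SE; two-sided exact permutation p = 0.171, adjusted p = 0.171). A ratio reads counts of transcripts of different length, so only its change between treatments has a meaning.

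**Figure D3:**
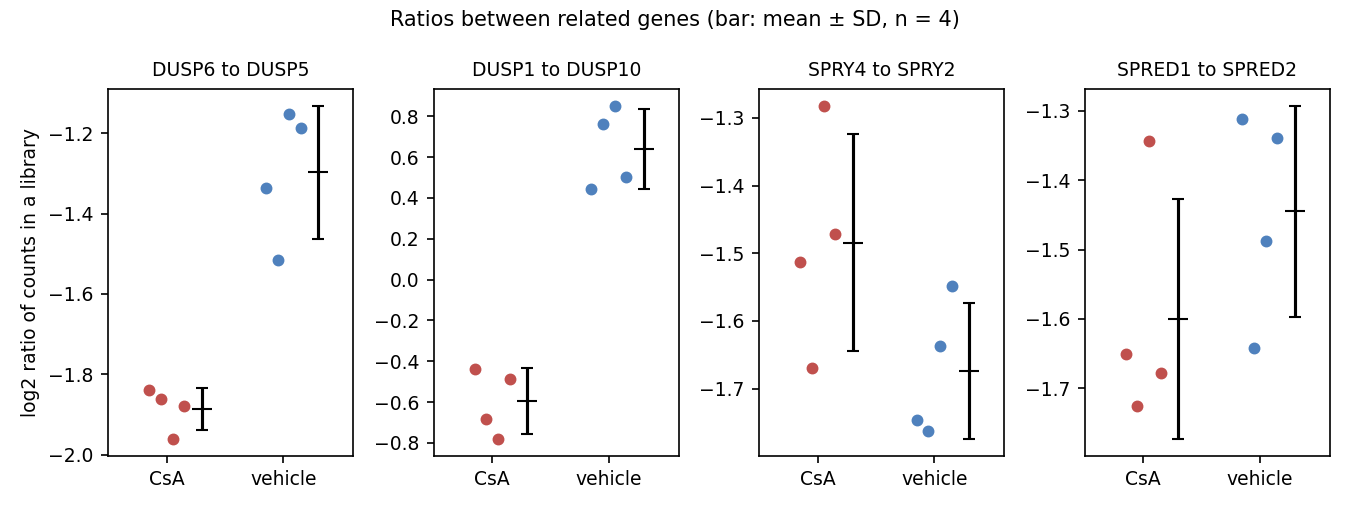
Log2 ratio of the counts of related feedback genes in each library, with 0.5 added to each count, CsA libraries on the left, Veh libraries on the right and bars for the mean ± SD (n = 4 each). The axes do not start at 0 and differ between panels. DUSP6 to DUSP5 and DUSP1 to DUSP10 are separated between treatments, with differences of -0.59 and -1.24, and the other ratios overlap.

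Few relatives of these genes passed the test. Of 7 other MAP kinase phosphatase, Sprouty and SPRED genes, 6 were tested, 1 rose, none fell and 5 did not pass. The median log2 fold change was 0.21. Of all genes tested, 33.3% rose and 33.5% fell. The gene that rose was DUSP2, a nuclear phosphatase known from immune cells, with 5.38 ± 0.50 CPM with CsA and 1.89 ± 0.41 CPM with Veh (SD, n = 4 each) and a log2 fold change of 1.53 ± 0.26 (SE; edgeR adjusted p = 6.0e-07). DUSP7, DUSP8, DUSP9, DUSP16 and SPRED3 did not pass, with log2 fold changes between -0.08 and 0.57, and SPRY3 had no count in any library. The number that rose was 2 with no filter, and 2 when CsA library 1, 2 or 3 or Veh library 1 or 3 was left out.

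Other transcripts known to respond to ERK moved both ways. Of 12 listed, 11 were tested, 8 rose and 3 fell, with a median log2 fold change of 0.66. Over all genes tested the shares were 33.3% and 33.5%. PHLDA1, a gene induced by growth factors, averaged 321 ± 8.34 CPM with CsA and 94.9 ± 3.90 CPM with Veh, a log2 fold change of 1.76 ± 0.06 (levels ± SD, fold changes ± SE; edgeR adjusted p = 6.6e-33). ETV5, an ETS transcription factor of the PEA3 group, averaged 65.8 ± 2.77 CPM with CsA and 21.8 ± 3.45 CPM with Veh, a log2 fold change of 1.59 ± 0.09 (edgeR adjusted p = 1.3e-22). The proliferation regulator MYC had a log2 fold change of 1.25 ± 0.06 (edgeR adjusted p = 1.2e-26).

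EGR1, an immediate early transcription factor, ran against them. It had 5.76, 8.06, 5.52 and 8.95 CPM in CsA libraries 1 to 4, against 37.9, 43.8, 41.3 and 46.3 CPM in Veh libraries 1 to 4. All CsA libraries were far below the Veh libraries, and the log2 fold change was -2.59 ± 0.13 (SE; edgeR adjusted p = 2.9e-25). FOS, another immediate early gene, had 28 counts over the CsA libraries and 42 over the Veh libraries and was not tested.

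The kinases and adaptors of the ERK route had a smaller median change than the feedback genes. Of 19 genes of the ERK cascade core, 10 rose, 2 fell and 7 did not pass, with a median log2 fold change of 0.22. With 33.3% of all genes tested rising and 33.5% falling, calls at this rate are common here. The RAF kinase BRAF had a log2 fold change of 1.09 ± 0.16 (edgeR adjusted p = 1.8e-08), and the scaffold KSR1 one of 0.85 ± 0.11 (edgeR adjusted p = 1.1e-09). NF1, the partner of the SPRED proteins, had one of 0.61 ± 0.06 (edgeR adjusted p = 3.1e-13), and the MEK gene MAP2K2 one of 0.50 ± 0.07 (edgeR adjusted p = 1.6e-09). The ERK gene MAPK3, with a log2 fold change of -0.02 ± 0.10 (edgeR adjusted p = 0.87), did not pass. The number that fell was 1 with DESeq2 and when CsA library 1, Veh library 1 or Veh library 3 was left out.

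The list of JNK and p38 pathway kinases holds the JNK and p38 genes and the kinases upstream of them. Among its 14 genes, 7 rose, 5 fell and 2 did not pass, with a median log2 fold change of 0.22. Beside this, 33.3% of all genes tested rose and 33.5% fell. The p38 delta gene MAPK13 had a log2 fold change of 1.18 ± 0.07 (edgeR adjusted p = 6.2e-22). The p38 beta gene MAPK11, at -0.96 ± 0.07, fell (edgeR adjusted p = 8.1e-19), as did the upstream kinase MAP3K1, at -1.15 ± 0.09 (edgeR adjusted p = 5.9e-17), and the JNK gene MAPK10, at -1.83 ± 0.19 (edgeR adjusted p = 9.2e-13). Without CsA library 4 the number that rose was 4.

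Inhibitors of receptor and RAF signalling outside the DUSP, Sprouty and SPRED families moved both ways. Of 7, 2 rose, 4 fell and 1 did not pass, with a median log2 fold change of -0.16, where 33.3% of all genes rose and 33.5% fell. CBL, which marks receptors for degradation, rose by 0.52 ± 0.07 on the log2 scale (edgeR adjusted p = 8.4e-09). The log2 fold change was -1.45 ± 0.10 for the caveolar protein gene CAV1, -0.42 ± 0.08 for LRIG1 and -0.28 ± 0.06 for ERRFI1, a feedback inhibitor that binds the EGF receptor (edgeR adjusted p = 3.8e-19, 3.3e-06 and 1.0e-05).

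**Figure D4:**
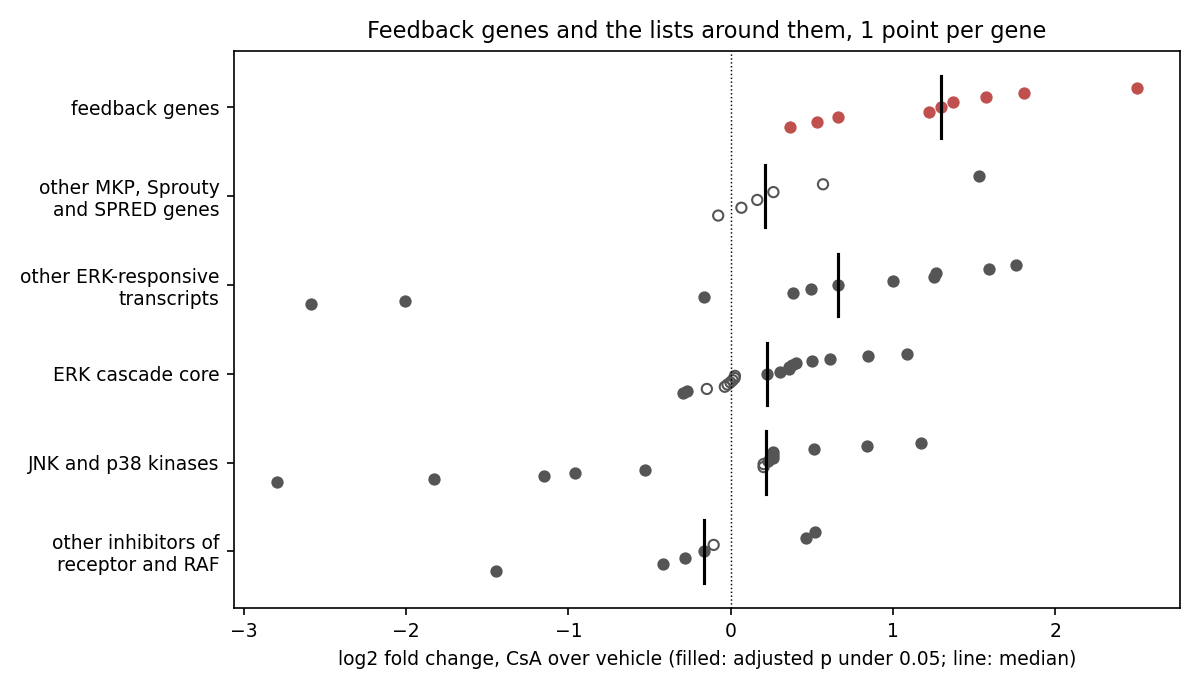
Log2 fold change (CsA over Veh) of each tested gene, by list, with filled points for an edgeR adjusted p under 0.05, open points otherwise and a vertical line at each list's median. The 9 feedback genes all lie right of 0 with a median of 1.29, while the other lists straddle 0 with medians from -0.16 to 0.66.

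Among 10072 genes with a mean of at least 50 counts, the 3 whose log2 CPM most resembled DUSP10 over the 8 libraries were RND3, PPP1R15A and TMCC3, and for DUSP5 they were EPAS1, NDRG1 and PLIN2. For SPRY4 they were CSTB, KLHL21 and SQSTM1, and for SPRY2 they were IL23A, PACSIN2 and ICOSLG. For DUSP6 they were LONRF3, RPL29 and HSF1, and for DUSP1 they were TOMM34, FLII and PREB. The likeness was Pearson's r, and it mostly reads the shared difference between treatments: between 645 and 1464 genes had an r over 0.95 with each of these members. With the group means taken out, other genes led for each member, and only 2 to 9 genes had an r over 0.95.

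The Argonaute lists give the positions of miRNA effector proteins on RNA annotated to these genes, as a description without replicates. The CsA list had 8 clusters on 6 of the feedback genes, of 36812 clusters in all, and the Veh list had 16 clusters on 7 of them, of 56985. By annotation, 3 CsA and 7 Veh clusters were in the promoter-TSS class, called promoter here, and 4 and 5 in introns. The promoter class does not place a cluster outside the mRNA. By its letters, the DUSP1 cluster of this class in the Veh list begins 12 bases after a RefSeq start. Of the 9 feedback genes with a mean of at least 10 counts, 6 had a cluster in the CsA list and 7 in the Veh list. Of all 12909 genes at that level, 42.0% had one in the CsA list and 52.4% in the Veh list. No list had a cluster on DUSP4, DUSP6 or SPRY1. Of the 24 clusters in both AGO2 lists together, 17 lay on the gene's strand and 7 on the opposite strand, among them all 3 on SPRED2.

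In the Veh list DUSP5 had the single cluster of these genes in a 3′ UTR, and DUSP10 had a cluster annotated as non-coding, which begins 36 bases after a RefSeq start. These are shown, as deposited by the authors with build hg19, because each holds a perfect complement of a miRNA seed, in capitals. The DUSP5 cluster lies at chr10:112270637-112270659 on the plus strand and the DUSP10 cluster at chr1:221915376-221915395 on the minus strand. The miRNAs from RefSeq (GRCh38.p14) follow, with the seed, bases 2 to 8, in capitals.
DUSP5 3′ UTR cluster: ttcggggcATAAGCTgatcaccg
DUSP10 non-coding cluster: aatgggggcTGAATGTgcga
miR-21-5p: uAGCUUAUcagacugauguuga
miR-181a-5p: aACAUUCAacgcugucggugagu
miR-181b-5p: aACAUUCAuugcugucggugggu
The DUSP5 cluster holds the complement of the miR-21-5p seed, and it is the only one of 748 clusters in 3′ UTRs in the Veh list that does. Among clusters of its length in that list, 7 of 3147 (0.222%) hold it. The DUSP10 cluster holds the complement of the seed that miR-181a-5p and miR-181b-5p share, as do 34 of 9963 clusters of its length (0.341%). Of the 421 Veh clusters annotated as non-coding, 3 hold it (0.713%). Each share is for 1 site, while the seeds of 35 miRNAs were sought in 24 clusters. The shares therefore do not measure how unusual it is to find a match. Neither the DUSP5 3′ UTR cluster nor the DUSP10 non-coding cluster is in the CsA list, which has fewer clusters. Over whole lists, the miR-21-5p complement was in 53 of 36812 CsA clusters and 80 of 56985 Veh clusters. The complement for miR-181a-5p and miR-181b-5p was in 104 CsA clusters and 157 Veh clusters. Of clusters in 3′ UTRs, none of 530 in the CsA list held either complement, and only the DUSP5 cluster of 748 in the Veh list did. The DUSP5 and DUSP10 clusters had middling scores: 49.5% of the Veh list scored at or above the DUSP5 cluster and 36.0% at or above the DUSP10 cluster.

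The miRNAs whose seed complements were found did not pass a test between treatments, in a table where 11.3% of 470 miRNAs did. miR-21-5p took between 54.7% and 62.6% of all miRNA counts in a library, and its log2 fold change was -0.003 ± 0.13 (SE; edgeR adjusted p = 0.99). That of miR-181a-5p was 0.26 ± 0.11 (SE; edgeR adjusted p = 0.17) and that of miR-181b-5p was 0.01 ± 0.11 (SE; edgeR adjusted p = 0.98). Of a list of 14 miRNAs, these 3 included, 5 passed the test. miR-7-5p fell, with a log2 fold change of -1.02 ± 0.11 (edgeR adjusted p = 9.8e-06). The log2 fold change was 0.49 for miR-155-5p, 0.46 for miR-23a-3p, 0.45 for miR-29a-3p and 0.40 for miR-27a-3p, which all rose (edgeR adjusted p = 0.0056, 0.043, 0.0098 and 0.024).

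DUSP10 had the most clusters, 2 in the CsA list and 6 in the Veh list, and those with the highest scores. An intronic cluster at chr1:221893032-221893053 (hg19) was in both lists, with an authors' score of 984 in the CsA list and 766 in the Veh list. A cluster near an internal start, annotated as promoter, was in the CsA, Veh and pan-Argonaute lists. It is shown because its letters were found in a RefSeq promoter window of DUSP10, beginning 230 bases before that start, on the gene's strand.
DUSP10 promoter cluster in the CsA list, chr1:221910448-221910472 (hg19): tgggtggagttgtggataggggtga
Its score was 728 in the CsA list, where 7.69% of clusters scored as high, and 761 in the Veh list, where 4.92% did. The unit of the score is not given, so scores of different lists are not compared.

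The identity of the cells and the depth bear on all of these values. Total counts ran from 3965431 to 7041604 per mRNA library. Of 17 proximal tubule markers, 7 were tested, and HNF4A, SLC22A6 and SLC22A8 had no count in any library. The summed level of the 17 was 1316 to 1404 CPM with CsA and 1384 to 1410 CPM with Veh, mostly PAX8 (log2 fold change 0.19). Of the tested ones 2 rose, 4 fell and 1 did not pass (MME log2 fold change 1.73, PDZK1 -2.01, GGT1 -0.62). All 5 epithelial markers were tested, with a summed level of 841 to 945 CPM with CsA and 733 to 813 CPM with Veh; KRT18 and KRT8 had log2 fold changes of 0.71 and 0.42, CDH1 and EPCAM of -2.46 and -0.37. Of 13 markers of other cell types, 7 had no count in any library, among them UMOD, AQP2, PECAM1, PTPRC, CD3E and COL1A2, and the summed level was 6.21 to 8.07 CPM with CsA and 16.6 to 23.3 CPM with Veh, mostly COL1A1 (log2 fold change -1.52) and SLC12A3 (-0.97). The part of these marker changes in the rise of the feedback genes was not tested.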

How the data were processed

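The 10 genes and the lists beside them were chosen with earlier results of these data known. Tables deposited by the authors hold raw counts for gene symbols and for mature miRNAs, and their PAR-CLIP cluster lists hold a score of unknown unit. The submitters' processing notes name HTSeq, TopHat, Bowtie, DESeq2, cutadapt and CASAVA 1.8.2 with build hg19. Their roles and the strand setting of the counting are not given there, and without the strand, reads of overlapping or antisense genes cannot be told apart. Every sample column was matched by its name to a label. The lowest chi-square per degree of freedom between replicate libraries was 1.28 for mRNA and 31.7 for miRNA, so none was taken as a repeat of another. Total counts per miRNA library ran from 6664231 to 9184278.

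Counts were fitted over all features with edgeR 4.0.16 under R 4.3.3 (TMM after filterByExpr, quasi-likelihood test of CsA over Veh, Benjamini-Hochberg adjustment over all features tested). A call is an adjusted p under 0.05; "rose" and "fell" are used only of calls. Levels are CPM after TMM, and the SE is that implied by the F statistic. The authors' deposited comparison table holds, per the file headers, a mean signal per gene (normalized counts), log2 fold changes and p-values, and gave no result here. Cluster starts in the AGO2 lists were taken as 0-based, since End minus Start equals the sequence length in all of them, and printed 1-based; the pan-Argonaute list had equal lengths in 2692 of 19306 clusters, and its sequences were left out. The strand of DUSP5 was read from the order of its annotated clusters. Motifs were searched on both strands in RefSeq windows (250 bases before to 50 after a start), which 8 of the 10 genes have. Of 37 candidate miRNAs, 35 matched a RefSeq sequence.

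Named genes were all 10 members, up to 4 called genes with the smallest p per list, EGR1, FOS and MAPK3. For members with a log2 fold change of 1 or more, the 3 most alike genes were also named. DUSP7, DUSP8, DUSP9, DUSP16, SPRED3, SPRY3, PAX8, the zero-count markers and the 5 listed miRNAs that passed were named after their values were seen. Some genes that the rule selects are left out of the text, while counts over lists include them. Alternatives were DESeq2 1.42.0, RLE scaling, no filter, limma voom 3.58.1, a replicate block and each library left out. In counts simulated for 12855 genes, edgeR recovered 94 of 100 genes changed by 1 on the log2 scale. It recovered 71 of 100 changed by 0.5, with 10 false calls. No other gene was changed in the simulation, while 33.3% of genes rose and 33.5% fell in the data. The recovery and false calls therefore need not hold for the data.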

Additional observations from a re-analysis of the deposited data

Results flagged for a closer look

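A library was marked where its distance to the nearest library of its treatment took up more of that treatment's range than Dixon's 95% critical value for 4 values. Of 90 groups of 4 libraries examined, 5 had such a library, of which 4 are given here, and chance gives about 1 in 20. DUSP1 was low in Veh replicate 1, at 56.0 CPM. MAPK13 was also low in Veh replicate 1, at 46.1 CPM, and SLC12A3 was low in Veh replicate 2, at 2.39 CPM. MAPK3 was high in Veh replicate 4, at 32.7 CPM.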

How the results depend on the processing

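Each of the 9 tested feedback genes kept its direction and its call under all 13 alternatives, with log2 fold changes of 2.45 to 2.58 for DUSP10, 1.78 to 1.83 for DUSP5, 1.18 to 1.42 for DUSP1, 0.53 to 0.78 for SPRY1 and 0.28 to 0.46 for SPRED1. Without a filter, and with DESeq2, 10 members were called, DUSP4 included. The 4 ratios kept their direction and missed the threshold throughout. The smallest two-sided exact permutation p that 4 against 4 libraries allow is 0.029, and a replicate block allows only larger ones. These misses therefore do not show that the ratios are unchanged. Same-numbered mRNA libraries did not deviate together (correlations from -0.08 to 0.03). In miRNA libraries the correlations ran from -0.06 to 0.34, and replicates 2 and 4 were most like the Veh library of their own number. The correlations do not settle whether the numbers pair the samples. With a replicate block 9 members, 4243 genes higher and 4243 lower were called, against 4285 and 4312 without it. DUSP10 then had a log2 fold change of 2.51. Leaving out libraries gave 9 members each time. Among the other MAP kinase phosphatase, Sprouty and SPRED genes the number that rose was 2 without a filter and 1 to 2 with libraries left out; the ERK core genes that fell numbered 1 with DESeq2 and 1 to 2 with libraries left out; JNK and p38 genes that rose numbered 4 to 8 with libraries left out. SLC12A3 missed the threshold with DESeq2, at -0.97. Uncalled values crossed 0: MAPK3 ran from -0.043 to 0.043 and miR-181b-5p from -0.049 to 0.109 with libraries left out, and miR-21-5p was 0.0018 with DESeq2, 0.00096 without a filter, 0.033 with library sizes that leave it out, and -0.077 to 0.103 with libraries left out. At or above the median score, 3 clusters on members were left in the CsA list, 12 in the Veh list and 1 in the pan-Argonaute list; with positions 2 to 7 and an A as the seed rule, 0 clusters on members held a site. Beyond these constructions the cause was not tested. Depth limits DUSP4 most, with 11 counts in all.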
